A study of Rattus norvegicus with 23 samples.

Results

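The extracellular matrix of a dorsal root ganglion holds sensory neurons, their satellite glia, Schwann cells and vessels in place, and it is laid down and remodelled by several families of secreted proteins. Collagens, laminins and glycoproteins form the scaffold, small leucine-rich proteoglycans and the chondroitin sulphate proteoglycans of the lectican family are bound into it, matrix metalloproteinases (MMPs) and ADAM and ADAMTS proteases cut it, and the TIMPs inhibit these proteases. Laminins are known to favour axon growth, and lecticans are known to restrain it. The genes described here are the matrix, metalloproteinase and inhibitor genes on the array. They were taken by gene symbol, by a rule set with earlier results of these data known. The rule took collagen chains, laminin chains, Mmp, Adam, Adamts and Timp genes, fibulins, Fn1, Efemp1, Dcn, Lum, Bgn, Sparc and Sparcl1, Bcan, Ncan, Vcan, Tnc, Crtac1 and Htra1. This gave 63 of the 5088 probes, for 60 genes. Col1a1, Col2a1 and Bcan had 2 probes each.

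In the lesioned group, the sciatic nerve of Long-Evans rats at postnatal days 20 to 24 was cut under isoflurane, and the L4 and L5 dorsal root ganglia were removed 4, 8, 12, 18, 24, 48, 148 or 296 h later. Intact ganglia were the reference on the same array, and the labels do not say from which animals they came. There were 23 arrays, 3 at each time and 2 at 296 h, each with lesioned RNA in Cy5 and intact RNA in Cy3. The labels do not state whether replicate arrays came from separate animals, so the p-values reflect how far these arrays scattered, which may be technical. The same labels that describe surgery and removed ganglia name the material as cultures. All values are log2 ratios, where 0 is equality. Their direction was not stated, and they were read as lesioned (Cy5) over intact (Cy3).

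Of the 63 matrix probes, 61 to 63 had a value on each of 17 arrays that lacked few probes (full arrays) and 26 to 55 on each of 6 arrays that lacked many (sparse arrays: replicates 2 and 3 at 48 h, all 3 at 148 h, replicate 2 at 296 h). The log2 ratios of all probes had an SD of 0.506 to 0.913 on full arrays and 1.22 to 1.61 on sparse arrays. The fit weighted each array by how far it scattered around the means of its time. At 296 h the full and the sparse array had the same weight (0.39), so the wider one was not weighted down against the other. The spread over probes holds both change and error. Ratios carry no depth or level, so precision is limited by how many arrays there were, and the labelled tissue could not be checked by the abundance of its markers. No array had the dyes exchanged. A dye effect of a probe would therefore add to every value of single times and of the first day, but would cancel in a difference between times if it stayed constant.

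Across the time course the matrix genes did not move as a block. Timp1, an inhibitor of MMPs, was the 1 gene of the set whose late rise passed a test between times: it was near 0 for the first day and 4.26-fold higher in lesioned than in intact ganglia at 48 h and 5.01-fold higher at 148 h. Crtac1 was higher in lesioned ganglia on every array from 4 h on. Efemp1 and Adam6 were lower on nearly all arrays. On the first day 57 of 63 probes had a fitted mean within 0.5 of 0 on the log2 scale. That mean averages 5 times, and single times were wider. Within 0.5 of 0 were 49, 51, 51, 52 and 46 of 63 fitted ratios at 4, 8, 12, 18 and 24 h. Later it was 29 of 56 at 48 h, 21 of 43 at 148 h and 25 of 41 at 296 h. These late times hold all the sparse arrays, and the share over all probes was not counted.

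**Figure D1:**
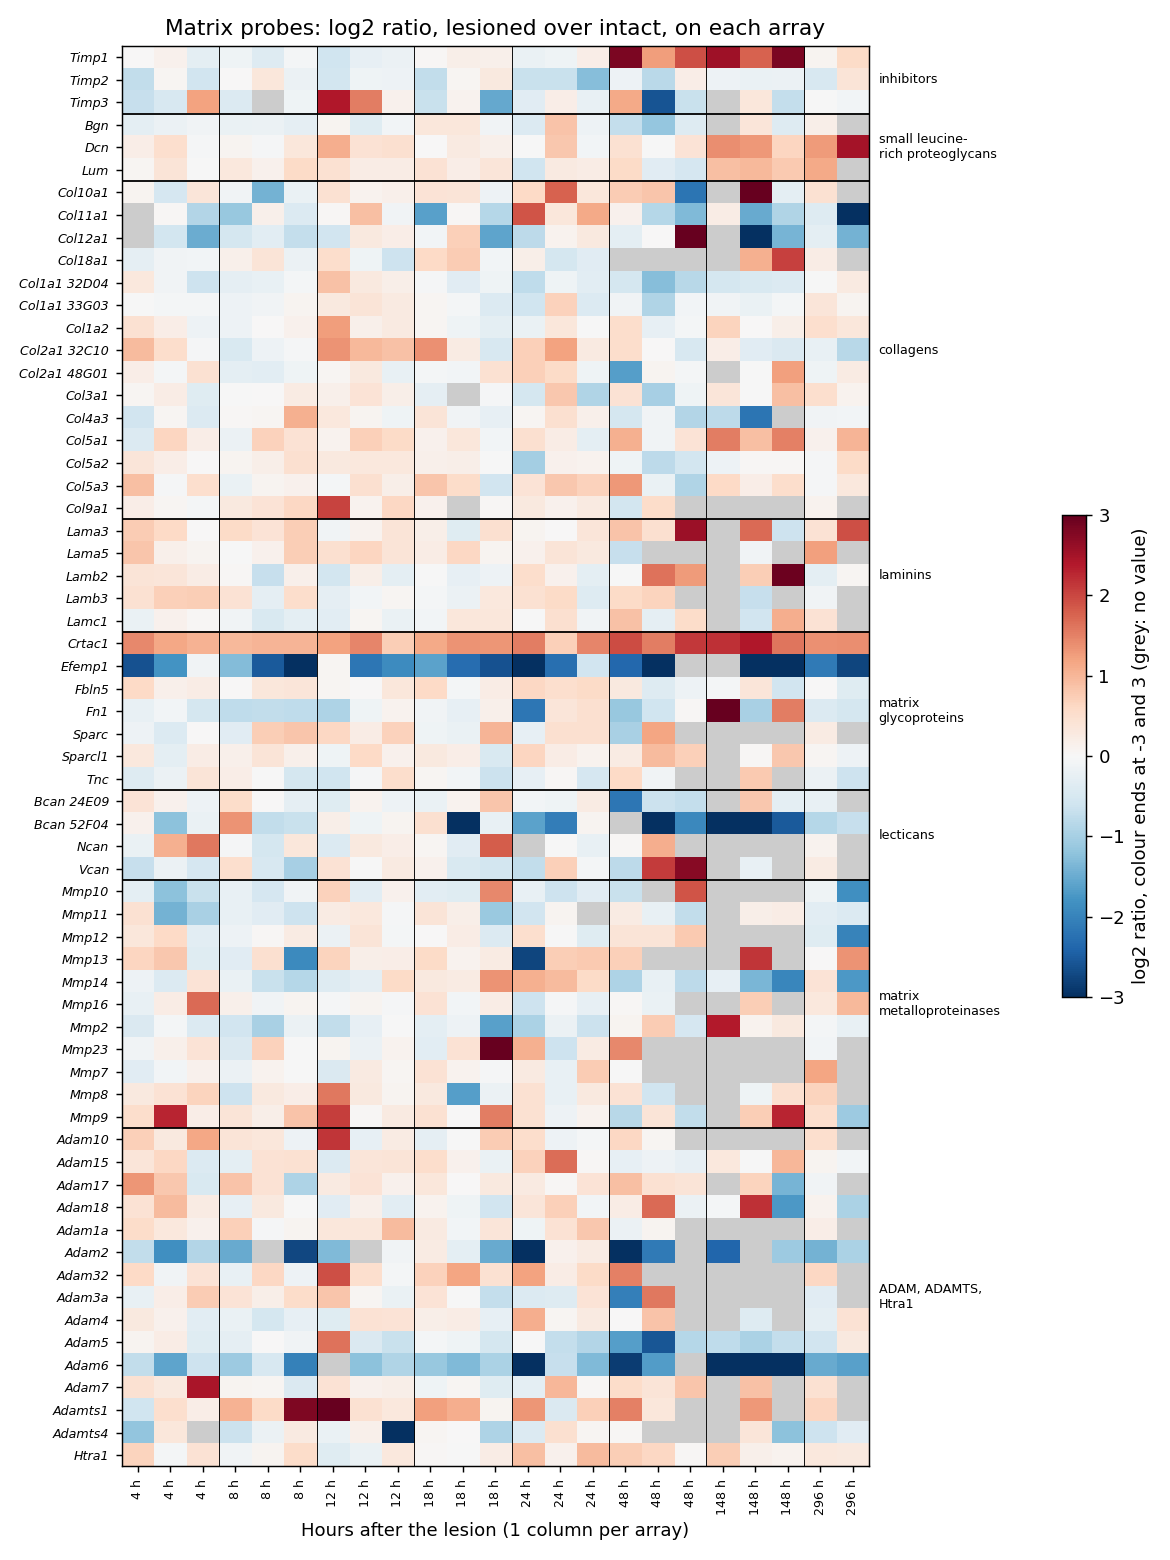
Log2 ratio of lesioned over intact ganglia for the 63 matrix probes (rows, by family) on each of the 23 arrays (columns, in order of hours after the lesion), with red for higher and blue for lower in lesioned ganglia and grey for no value. Timp1 turns red at 48 and 148 h, Crtac1 is red throughout, and Efemp1 and Adam6 are blue in nearly every column with a value.

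TIMPs bind the active site of MMPs. Timp1 had log2 ratios of 2.83, 1.26 and 1.94 on the 3 arrays of 48 h, of 2.53, 1.76 and 2.83 on those of 148 h and of 0.07 and 0.59 on those of 296 h. On the 15 arrays of 4 to 24 h its lowest ratio was -0.60, the median -0.12 and the highest 0.20. All 6 arrays of 48 and 148 h thus lay above all 15 of the first day, while those of 296 h did not both do so. Such separation was seen for 1 of 41 matrix probes with enough values and for 1.32% of all probes. The fitted ratio was 2.09 ± 0.29 (standard error, SE, n = 3, limma adjusted p = 4.9e-04) at 48 h and 2.33 ± 0.34 (SE, n = 3, limma adjusted p = 5.47e-04) at 148 h. At 296 h it was 0.33 ± 0.40 (SE, n = 2, limma adjusted p = 0.877).

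The change of Timp1 over time was tested directly. The average of its ratios at 48, 148 and 296 h exceeded that at 4, 8 and 12 h (late minus early) by 1.75 ± 0.22 (SE, 17 arrays, limma adjusted p = 1.45e-04), and a moderated F-test across the 8 times gave F = 14.6 (limma adjusted p = 0.00136). Timp1 was the 1 matrix probe of 34 tested past the threshold (an adjusted p under 0.05 over all probes tested) in either test, where 4.98% of all probes passed in late minus early (3.65% in the direction of higher) and 0.817% in the F-test. No fit that left out a single array ended any of these calls of Timp1. With only the arrays of one time in the fit, neither 48 h (limma adjusted p = 0.163) nor 148 h (limma adjusted p = 0.141) passed.

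Whole ganglia were measured, so more cells of a type and more RNA per cell cannot be told apart. Of 14 macrophage genes listed, 8 were on the array, and 2 had enough values late. Both rose in late minus early, C1qb, a complement component, by 2.12 ± 0.39 (limma adjusted p = 0.00568) and Lyz2 by 1.77 ± 0.30 (limma adjusted p = 0.0032), and their part in the value of Timp1 was not tested. At 48 h, where Timp1 was past the threshold, C1qb stood at 1.86 ± 0.50 (limma adjusted p = 0.0437) and Lyz2 at 0.41 ± 0.39 (limma adjusted p = 0.663), and C1qb was the 1 of 5 macrophage probes tested that passed. At 148 h, the other time at which Timp1 passed, both were higher in lesioned ganglia, C1qb with 3.51 ± 0.65 (limma adjusted p = 0.00318) and Lyz2 with 2.03 ± 0.50 (limma adjusted p = 0.0184), while Aif1, the third probe tested, had -0.48 ± 0.47 (limma adjusted p = 0.622). On the first day 1 of 8 macrophage probes was higher (Cd53, 0.93 ± 0.26, limma adjusted p = 0.0189) and 1 lower (Lyz2, -0.55 ± 0.09, limma adjusted p = 4.79e-04). Of 13 probes for sensory neuron genes, 1 was higher and 4 lower in late minus early, and of 11 for Schwann cells and satellite glia 0 were higher and 1 lower, where 3.65% of all probes were higher and 1.33% lower.

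The sequence before the start of Timp1 is shown because it is the 1 gene of the set whose late change passed. RefSeq promoter windows (build GRCr8, 250 bases before to 50 after the start of a gene) were found for 41 of the 60 genes. They were searched on both strands for TGANTCA (the AP-1 consensus), its variant TGAGTAA, the TATA box as TATAAA and the GC box as GGGCGG. The motifs were picked after the expression values were known, and the matches marked below in capitals do not overlap one another. The 250 bases before the start, chrX:3771123-3771372 on the minus strand, hold TGAGTAA at positions -108 to -102 and the GC box, read from the other strand as CCGCCC, at -142 to -137.
Timp1: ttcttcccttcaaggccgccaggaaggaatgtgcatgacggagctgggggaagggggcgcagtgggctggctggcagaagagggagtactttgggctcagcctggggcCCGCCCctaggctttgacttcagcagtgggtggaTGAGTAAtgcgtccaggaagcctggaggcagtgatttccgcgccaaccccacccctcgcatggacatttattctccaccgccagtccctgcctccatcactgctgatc
TGAGTAA occurs in 1 of the 41 windows and in 2.9% of 33469 windows in the table, and GGGCGG in 24 of 41 and 33.1%. A match is a description of letters only.

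The other inhibitors did not rise. Timp2, which also takes part in the activation of Mmp2 at the cell surface, had -0.67, -0.66 and -1.28 on the arrays of 24 h, and its fitted ratio there was -0.91 ± 0.20 (SE, n = 3, limma adjusted p = 0.011), 1.88-fold lower in lesioned ganglia. This call was lost without replicate 2 of 24 h (-0.98, limma adjusted p = 0.0615) or replicate 3 (-0.67, limma adjusted p = 0.251). Its late minus early value was -0.01 ± 0.27 (limma adjusted p = 0.987). Timp3, the TIMP that stays bound to the matrix, scattered between -1.53 and 2.39 on the first day and had -0.55 ± 0.64 (limma adjusted p = 0.684) in late minus early, the lowest value of the family.

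**Figure D2:**
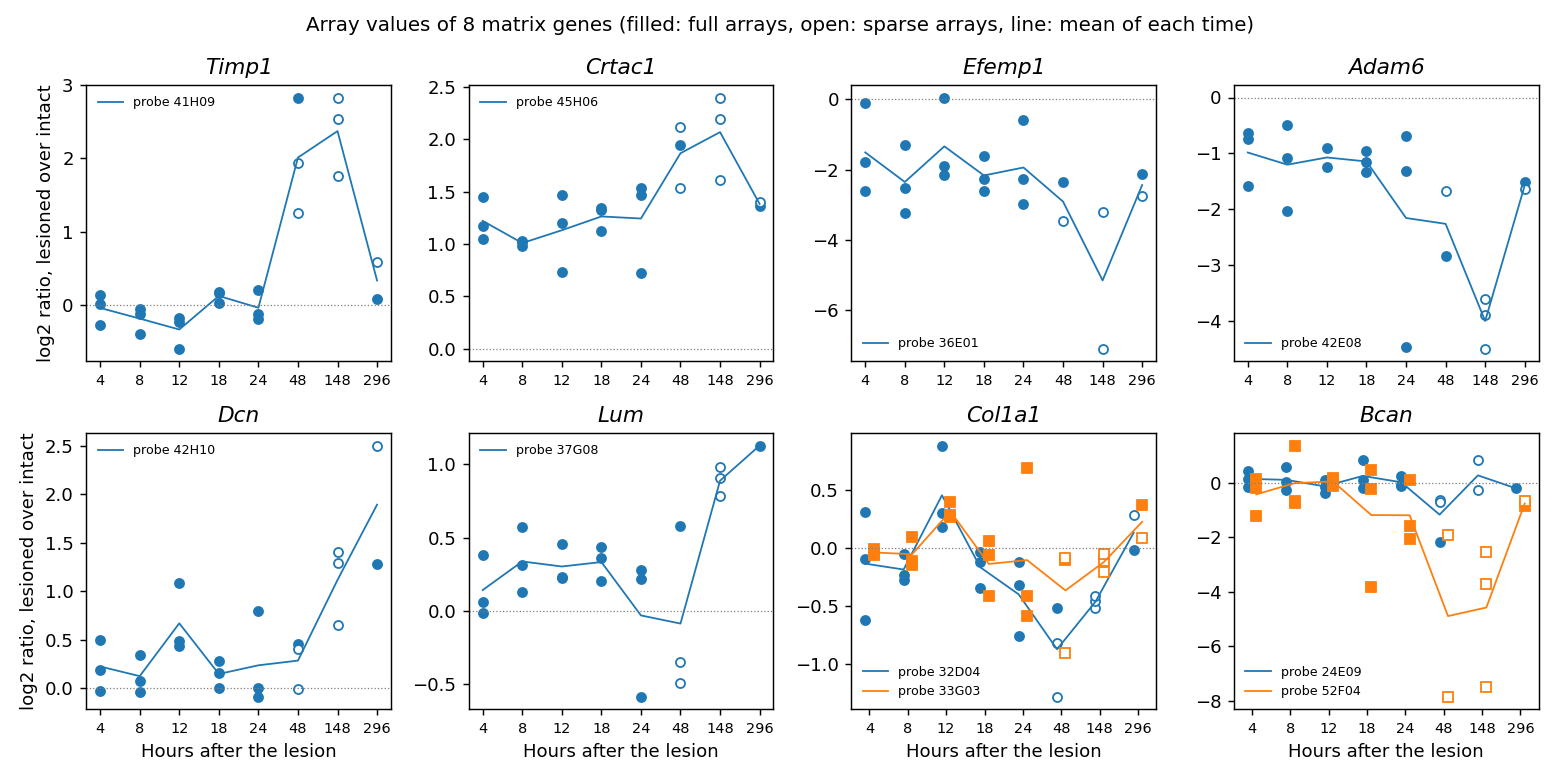
Log2 ratio of lesioned over intact ganglia (vertical axis) of 8 matrix genes against hours after the lesion, with 1 point per array (filled for full and open for sparse arrays) and a line through the mean of each time. Both probes are shown for Col1a1 and Bcan. Timp1 points lie between -0.60 and 0.20 through 24 h and between 1.26 and 2.83 at 48 and 148 h, while Crtac1 points lie above 0 throughout.

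Decorin (Dcn) and lumican (Lum), small leucine-rich proteoglycans that organise collagen fibrils, had their highest ratios at the last times. Dcn had 1.41, 1.29 and 0.65 at 148 h and 1.28 and 2.50 at 296 h, against a lowest of -0.09, a median of 0.19 and a highest of 1.09 over 4 to 24 h. Both arrays of 296 h and 2 of the 3 at 148 h lay above the first day. The late minus early value was 0.79 ± 0.24 (limma adjusted p = 0.0609), which missed the threshold. It passed with equal array weights (0.76, limma adjusted p = 0.0196) and without replicate 1 of 12 h (0.82, limma adjusted p = 0.0496) or replicate 2 of 24 h (0.79, limma adjusted p = 0.0367). Without replicate 1 of 296 h, which left 1 array at that time, it was 0.99. The fitted ratios were 1.07 ± 0.37 at 148 h (limma adjusted p = 0.0805; 0.043 without replicate 2 of 24 h) and 1.89 ± 0.44 at 296 h (limma adjusted p = 0.108). Without replicate 1 of 296 h the value at that time was that of the other array, 2.50. That array was sparse, and with no second array beside it its error could not be judged.

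Lum had 0.90, 0.98 and 0.78 at 148 h and 1.13 on the 1 array of 296 h with a value, against a lowest of -0.59, a median of 0.23 and a highest of 0.57 on the first day. All 3 arrays of 148 h lay above the first day, yet the fitted ratio of 0.89 ± 0.32 was not past the threshold (limma adjusted p = 0.101; 0.00352 with equal weights). Biglycan (Bgn), the third proteoglycan of this family, was not past the threshold in any comparison, and its first-day mean was -0.03 ± 0.08. Neither Lum nor Bgn had enough values to be tested in late minus early. Dcn also passed at 12 h with 1.09, 0.43 and 0.49 on its arrays and a fit of 0.54 ± 0.14 (limma adjusted p = 0.0449). That call was kept in 9 of 23 fits without 1 array, with adjusted p up to 0.245.

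Collagen chains, 13 genes on 15 probes, made up the largest share of the scaffold genes, and none passed in late minus early (0 of 12 probes tested). Col1a1, a chain of type I collagen, had -0.52, -1.29 and -0.82 at 48 h on probe 32D04, against -0.76, -0.13 and 0.88 (lowest, median and highest) on the first day, so the groups overlapped. The fitted 48 h ratio was -0.86 ± 0.29 (limma adjusted p = 0.104; 0.00581 with equal weights). The other probe, 33G03, had -0.11, -0.91 and -0.09 at 48 h and a fit of -0.40 ± 0.31 (limma adjusted p = 0.575). In late minus early the chains ran from -1.17 ± 0.58 for Col11a1 (limma adjusted p = 0.26) to 0.44 ± 0.28 for Col5a1 (limma adjusted p = 0.404).

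Single times gave 2 calls among collagens. Col2a1, the main cartilage collagen, had 1.34, 0.97 and 0.88 at 12 h on probe 32C10 and a fit of 0.98 ± 0.21 (SE, n = 3, limma adjusted p = 0.011), which was lost without replicate 2 of 12 h (1.11, limma adjusted p = 0.218) or replicate 3 (1.16, limma adjusted p = 0.229). Its other probe, 48G01, had 0.07, 0.29 and -0.21 there. Col4a3, a basement membrane chain, had -0.78 and -2.19 on 2 arrays of 148 h, both below all first-day arrays, with a fit of -1.73 ± 0.51 (limma adjusted p = 0.0417). It was no longer past the threshold without replicate 3 of 18 h (-1.71, limma adjusted p = 0.0506), replicate 3 of 148 h (-1.48, limma adjusted p = 0.145) or either array of 296 h (-1.73, limma adjusted p = 0.0517 each). At 12 h the fitted ratios of 14 of 15 collagen probes were above 0, with a median of 0.32 against 0.02 over all probes tested, and 1 of them passed.

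Col5a1 had 1.52, 0.90 and 1.52 at 148 h, above its highest first-day ratio of 0.71, and Col18a1, the source of endostatin, had 1.06 and 2.04 on 2 arrays, above its first-day 0.76. Counted over the set, 7 of 43 matrix probes had all their 148 h arrays above all first-day arrays (Timp1, Lum, Col5a1, Col18a1, Crtac1, Lamb2 and Mmp2), where 8.02% of all probes did, and 1 of 43 (Col4a3) had them all below, where 4.17% did. At 48 h the counts were 1 of 56 above (Timp1, with 3.65% of all probes) and 1 of 56 below (Bcan on probe 24E09, with 2.31%). Every array of 148 h was sparse, so this time and the array class cannot be told apart.

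Among the laminins, heterotrimers of basement membranes, Lamb2 had 0.74 and 2.95 on 2 arrays of 148 h against a first-day highest of 0.52. The fit of 1.80 ± 0.54 passed (limma adjusted p = 0.0466), but in 14 of 21 fits without 1 array it did not, with adjusted p up to 0.0571. Late minus early of Lamb2 was 0.82 ± 0.33 (limma adjusted p = 0.156) and that of Lama3 0.54 ± 0.33 (limma adjusted p = 0.384), the 2 laminins tested. On the first day Lama5 was above 0 on 14 of 15 arrays, with a mean of 0.34 ± 0.08 (SE, limma adjusted p = 0.00654). That call was kept in 24 of 26 fits without 1 array or 1 replicate number, with limma adjusted p up to 0.108.

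Crtac1, cartilage acidic protein 1, is a secreted glycoprotein of cartilage that in mouse nervous tissue is known as an antagonist of the Nogo receptor. It was higher in lesioned ganglia on all 23 arrays. Its ratios were 1.95, 1.53 and 2.12 at 48 h, 2.20, 2.40 and 1.61 at 148 h and 1.37 and 1.40 at 296 h, against a lowest of 0.72, a median of 1.17 and a highest of 1.54 on the first day. It was the 1 matrix probe of 46 with at least 20 values that was above 0 on all of them, as 0.711% of all probes were. It passed at each of the 7 times from 4 to 148 h, with fitted ratios between 1.01 ± 0.17 at 8 h and 2.06 ± 0.36 at 148 h. At 296 h the fit was 1.38 ± 0.43 (limma adjusted p = 0.234).

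The first-day mean of Crtac1 was 1.15 ± 0.07 (SE, 15 arrays, limma adjusted p = 4.55e-09), or 2.22-fold. Late minus early was 0.65 ± 0.23 (limma adjusted p = 0.113), so a rise with time was not past the threshold. Leaving out 1 array ended the call at 12 h (without replicate 2 of that time, 0.97, limma adjusted p = 0.0792) and at 8 h (without replicate 1, 1.02, limma adjusted p = 0.0547, or replicate 2, 1.004, limma adjusted p = 0.0545) and at no other time. A constant dye effect of this probe cannot be told apart from a constant lesion effect.

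Efemp1 (fibulin-3), a glycoprotein of elastic fibres and basement membranes, was lower in lesioned ganglia on 20 of 21 arrays. It had -2.36 and -3.46 on 2 arrays of 48 h, -7.10 and -3.20 on 2 of 148 h and -2.12 and -2.75 at 296 h, against a lowest of -3.22, a median of -2.17 and a highest of 0.05 on the first day. The groups overlapped. Its first-day mean was -1.82 ± 0.23 (limma adjusted p = 3.26e-05), 3.52-fold lower, and it passed at 8, 12, 18 and 148 h. The 148 h call (-5.23 ± 1.21, limma adjusted p = 0.0137) was kept in the 21 fits without 1 array that left both of its arrays in, but that at 12 h (-1.76) was lost without replicate 2 of that time (-0.92, limma adjusted p = 0.78) or replicate 3 (-1.06, limma adjusted p = 0.746). That at 18 h (-2.08) was lost without any one of its arrays (-1.94 to -2.44, limma adjusted p = 0.105 to 0.326), and that at 8 h (-2.18) was lost in 15 of 23 such fits, with adjusted p up to 0.181. Late minus early was -1.75 ± 0.74 (limma adjusted p = 0.188).

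Names of probes have the form of a plate and a well and were read so. Of probes from plates 36, 52 and 53, 60.4% passed in the first-day mean, against 22.3% from other plates. No rule for picking these plates is given here, and earlier results of these data were known, so the contrast is a description only. Over all probes 563 of 1188 calls in that mean were higher, and 531 of 1035 in the fit without these plates. Efemp1 is on plate 36, and Bcan (52F04) and Lamb2 are on plate 52. The part of the plate in their values was not tested. The 250 bases before the starts of Crtac1 (chr1:251182690-251182939, minus strand) and Efemp1 (chr14:106811614-106811863, plus strand) are shown because these probes had the highest and the lowest first-day means. In capitals are TATAAA at -62 to -57 and GGGCGG at -39 to -34 of Crtac1, and TGAATCA, a match to TGANTCA, at -215 to -209 and CCGCCC at -91 to -86 of Efemp1.
Crtac1: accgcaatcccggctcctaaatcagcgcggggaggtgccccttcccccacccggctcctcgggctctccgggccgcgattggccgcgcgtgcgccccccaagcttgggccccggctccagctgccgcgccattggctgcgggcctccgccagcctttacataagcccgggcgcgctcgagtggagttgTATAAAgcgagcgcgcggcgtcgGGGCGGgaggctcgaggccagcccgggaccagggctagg
Efemp1: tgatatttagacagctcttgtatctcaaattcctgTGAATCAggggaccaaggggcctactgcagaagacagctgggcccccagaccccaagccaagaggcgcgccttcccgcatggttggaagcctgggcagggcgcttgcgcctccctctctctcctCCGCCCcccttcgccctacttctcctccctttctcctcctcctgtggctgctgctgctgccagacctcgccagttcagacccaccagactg
TATAAA occurs in 11 of the 41 windows and in 14.2% of all windows, and TGANTCA in 6 of 41 and 7.33%.

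Of the remaining glycoproteins, fibulin-5 (Fbln5), which assembles elastic fibres, was above 0 on 14 of 15 first-day arrays, with a mean of 0.29 ± 0.07 (SE, limma adjusted p = 0.00381). The first-day call of Fbln5 was kept in 24 of 26 fits without 1 array or 1 replicate number, with limma adjusted p up to 0.094. At 24 h its arrays had 0.62, 0.51 and 0.57 and the fit was 0.56 ± 0.15 (limma adjusted p = 0.0386), lost without any one of these arrays (0.54 to 0.59, limma adjusted p = 0.117 to 0.241). Fibronectin (Fn1), tenascin-C (Tnc), Sparc and Sparcl1 passed in no comparison, but Tnc and Sparc had too few values to be tested in late minus early or the F-test. Fn1 had 4.64, -0.98 and 1.52 on the arrays of 148 h, which disagreed in sign.

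The lecticans Bcan (brevican), Ncan (neurocan) and Vcan (versican) passed in no comparison. Of their 4 probes, 1 (Bcan on 52F04) had enough values to be tested in late minus early. The probes of Bcan differed in size. Probe 52F04 had -7.85 and -1.93 on 2 arrays of 48 h and -3.70, -7.50 and -2.53 at 148 h, against -3.82, -0.20 and 1.35 (lowest, median and highest) on the first day. Probe 24E09 had -2.16, -0.65 and -0.71 at 48 h and 0.81 and -0.29 on 2 arrays of 148 h, against -0.37, 0.00 and 0.83. Both were thus low at 48 h and only 52F04 was low at 148 h. Late minus early of 52F04 was -3.74 ± 1.11 (limma adjusted p = 0.0595), and it passed without replicate 1 of 18 h (-3.75, limma adjusted p = 0.0359) or replicate 2 of 18 h (-3.74, limma adjusted p = 0.0167). Without replicate 1 of 296 h, which left 1 array at that time, it was -3.71. At 48 h the fits were -5.94 ± 1.85 for 52F04 (limma adjusted p = 0.0835) and -1.34 ± 0.39 for 24E09 (limma adjusted p = 0.067), and 52F04 passed there without replicate 1 (limma adjusted p = 0.0474) or replicate 2 (limma adjusted p = 0.0233) of 18 h.

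**Figure D3:**
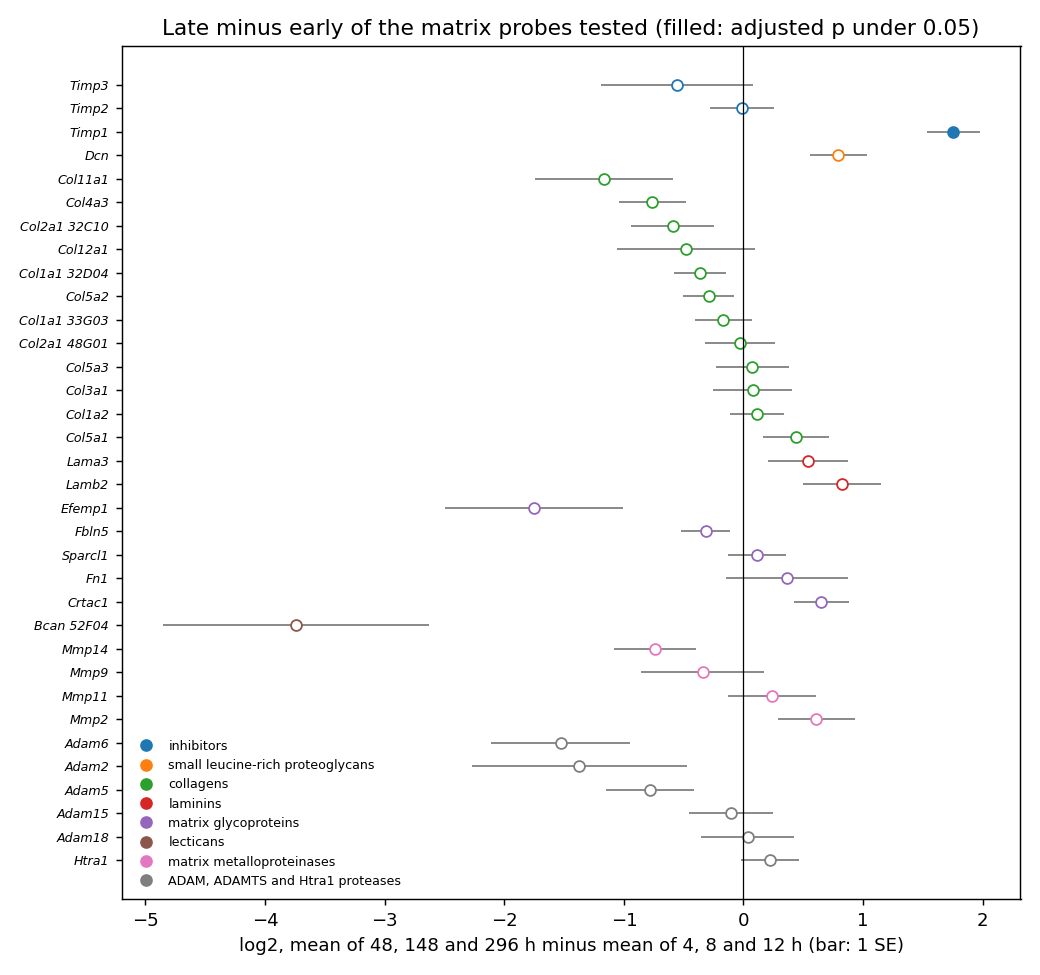
Difference between the late times (48, 148 and 296 h) and the early ones (4, 8 and 12 h) in log2 ratio, with 1 SE, for the 34 matrix probes tested, by family. The filled point, Timp1 at 1.75, is the one past an adjusted p of 0.05, and the lowest is Bcan 52F04 at -3.74.

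The MMPs, secreted or membrane-bound zinc proteases, were 11 genes, and 1 was higher and 1 lower in the first-day mean, where 11.4% of all probes were higher and 12.6% lower. Mmp9 (gelatinase B) was above 0 on 14 of 15 first-day arrays, from -0.16 to 2.29 with a median of 0.38, and its mean was 0.48 ± 0.16 (SE, limma adjusted p = 0.0383). That call was lost without replicate 2 of 4 h (0.35, limma adjusted p = 0.103) and in 5 other fits without 1 array. Mmp2 (gelatinase A) was below 0 on all 15 first-day arrays, from -1.63 to -0.01 with a median of -0.41, and its mean was -0.42 ± 0.10 (SE, limma adjusted p = 0.00668), kept in every fit without 1 array. At 148 h Mmp2 had 2.38, 0.10 and 0.30, all above the first day, but the fit of 0.63 ± 0.50 did not pass (limma adjusted p = 0.498). Late minus early ran from -0.74 ± 0.34 (limma adjusted p = 0.22) for Mmp14, the membrane-bound activator of Mmp2, to 0.61 ± 0.32 (limma adjusted p = 0.302) for Mmp2. Of the 11 MMP probes, 5 were tested at 148 h and 4 in late minus early.

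The ADAM family holds membrane proteases and proteins known from sperm. Adam6, a gene known from testis, was below 0 on all 21 arrays with a value, the 1 matrix probe of 46 to be so, as 1.31% of all probes were. It had -2.84 and -1.68 on 2 arrays of 48 h, -4.49, -3.60 and -3.88 at 148 h and -1.51 and -1.63 at 296 h, against -4.45, -1.12 and -0.49 (lowest, median and highest) on the first day. Its first-day mean was -1.23 ± 0.18 (SE, limma adjusted p = 1.77e-04), 2.34-fold lower, and late minus early was -1.53 ± 0.58 (limma adjusted p = 0.141). It also passed at 24 h (-1.75, limma adjusted p = 0.0222), lost without replicate 1 of that time (-1.004, limma adjusted p = 0.0634) and at -2.89 without replicate 2, and at 148 h (-3.89, limma adjusted p = 0.0119), lost without replicate 2 (-4.19, limma adjusted p = 0.0541) or replicate 3 (-4.05, limma adjusted p = 0.0835).

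Adam2, the fertilin beta subunit of sperm, had -7.23 and -2.12 on 2 arrays of 48 h, and the fit of -4.92 ± 1.15 passed (limma adjusted p = 0.0313) and could not be tested without either array. Its first-day mean of -0.87 ± 0.28 (limma adjusted p = 0.0358) was lost without replicate 2 of 4 h (-0.80, limma adjusted p = 0.0783), replicate 3 of 4 h (-0.89, limma adjusted p = 0.0546) or replicate 3 of 18 h (-0.81, limma adjusted p = 0.055). Adam5 had -1.64, -2.57 and -0.84 at 48 h and passed with -1.85 ± 0.48 (limma adjusted p = 0.038), lost without replicate 1 of 48 h (-1.71, limma adjusted p = 0.277) or replicate 2 (-1.24, limma adjusted p = 0.479). Adam6, Adam2 and Adam5 are on the same plate, 42, and so are Timp3, Dcn and Adam18. Adam10 and Adam17, the sheddases of many membrane proteins, passed in no comparison, with first-day means of 0.27 ± 0.14 and 0.28 ± 0.13. Both had too few values to be tested in late minus early.

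In the direction of higher first-day ratios stood Adamts1, which cuts versican and aggrecan, with -0.60, 0.58 and 4.29 (lowest, median and highest) and a mean of 0.74 ± 0.24 (SE, limma adjusted p = 0.0393), lost in 7 of 23 fits without 1 array, with adjusted p up to 0.101. Adam1a (0.36 ± 0.09, limma adjusted p = 0.00903) was kept in every such fit. Adam32 (0.45 ± 0.13, limma adjusted p = 0.0242) was lost without replicate 1 or 3 of 4 h, replicate 2 of 8 h or replicate 2 of 18 h, with adjusted p from 0.0502 to 0.0728. Htra1, a serine protease that cuts matrix proteins, passed in the first-day mean (0.22 ± 0.08, limma adjusted p = 0.0459) and at 24 h (0.63 ± 0.18, limma adjusted p = 0.048), each lost in 18 of 23 such fits, and its late minus early of 0.22 ± 0.24 (limma adjusted p = 0.661) was the highest among the 6 ADAM, ADAMTS and Htra1 probes tested.

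The first-day mean, over 4, 8, 12, 18 and 24 h, thus called 18 of 63 matrix probes, 13 higher and 5 lower in lesioned ganglia. In that comparison 24% of all probes passed, 11.4% higher and 12.6% lower, and the median was 0.09 over the matrix probes against 0.04 over all probes. By family, 3 of 15 collagen probes (Col2a1 on 32C10, Col5a1 and Col5a3), 1 of 5 laminins (Lama5), 2 of 3 small proteoglycans (Dcn and Lum), 2 of 7 glycoproteins, 1 of 11 MMPs and 4 of 15 ADAM, ADAMTS and Htra1 probes were higher. Lower were Efemp1, Mmp2, Timp2, Adam6 and Adam2. Among these 18, 5 had a size of 0.5 or more, namely Crtac1, Adamts1, Efemp1, Adam6 and Adam2.

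Several of the small means no longer passed when 1 array was left out. Col5a1 (0.26 ± 0.09, limma adjusted p = 0.0405) was lost in 10 of 23 fits without 1 array, with adjusted p up to 0.144. Lum (0.22 ± 0.07, limma adjusted p = 0.0238) was lost without replicate 2 of 4 h, replicate 3 of 8 h, replicate 1 of 18 h or replicate 2 or 3 of 24 h, with adjusted p from 0.0523 to 0.103. Col5a3 (0.36 ± 0.10, limma adjusted p = 0.0118) was lost without replicate 2 of 12 h or replicate 1 or 2 of 18 h, with adjusted p from 0.0512 to 0.0737. Dcn (0.26 ± 0.08, limma adjusted p = 0.0209) was lost without replicate 2 of 4, 18 or 24 h, with adjusted p from 0.0532 to 0.0608. Col2a1 on 32C10 (0.48 ± 0.11, limma adjusted p = 0.00391) and Timp2 (-0.33 ± 0.09, limma adjusted p = 0.00919) were kept in all of them. The other probe of Col2a1 had 0.07 ± 0.09 (limma adjusted p = 0.618), so the probes of that gene disagreed.

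**Figure D4:**
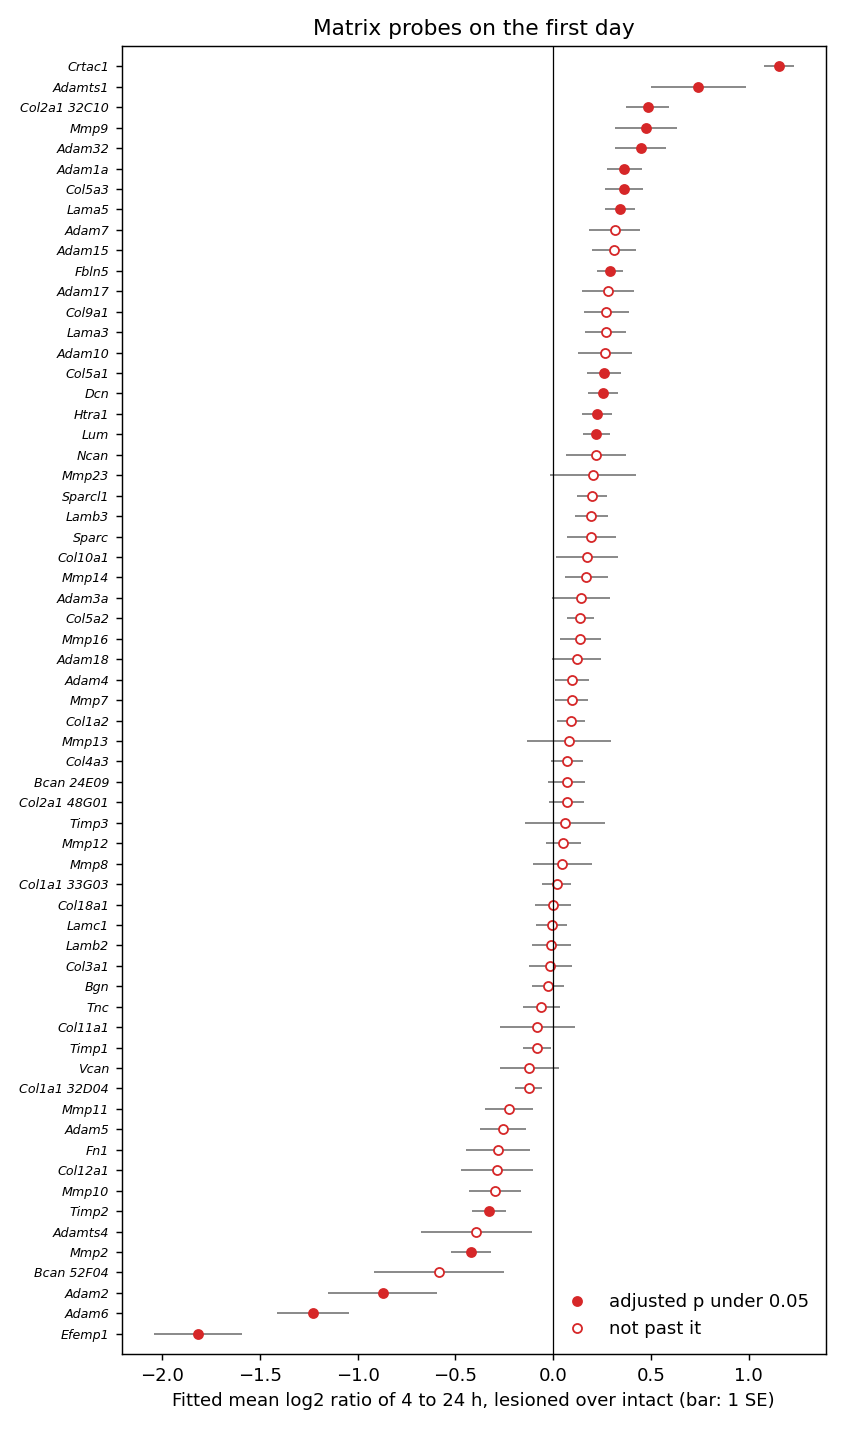
Fitted mean log2 ratio of lesioned over intact ganglia over 4 to 24 h (horizontal axis, with 1 SE) for each of the 63 matrix probes, ordered by value, filled where the adjusted p was under 0.05. The 18 filled points run from Efemp1 at -1.82 to Crtac1 at 1.15, and most probes lie within 0.5 of 0.

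Counted by single times, few matrix probes passed in the fit with array weights. The counts were 1 of 63 at 4 h (where 1.85% of all probes passed), 2 of 63 at 8 h (1.26%), 4 of 63 at 12 h (3.61%), 2 of 63 at 18 h (2.07%) and 5 of 63 at 24 h (6.19%). They were 4 of 56 at 48 h (3.96%), 6 of 43 at 148 h (8.75%) and 0 of 41 at 296 h (0.106%). In all, 24 of 455 tested pairs of probe and time passed, on 13 probes, and Crtac1 made up 7 of them and Efemp1 4. At 148 h the 6 were Timp1, Crtac1 and Lamb2 higher (4.93% of all probes) and Efemp1, Adam6 and Col4a3 lower (3.83%). Because of missing values 7 probes were not tested at 48 h, 20 at 148 h and 22 at 296 h, so the late record of the set is partial. Of the 63 probes, 41 passed in none of the comparisons in which they were tested, and 34 of the 63 were tested in late minus early. Shares of all probes were counted for each comparison alone, not for these sums over comparisons.

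**Figure D5:**
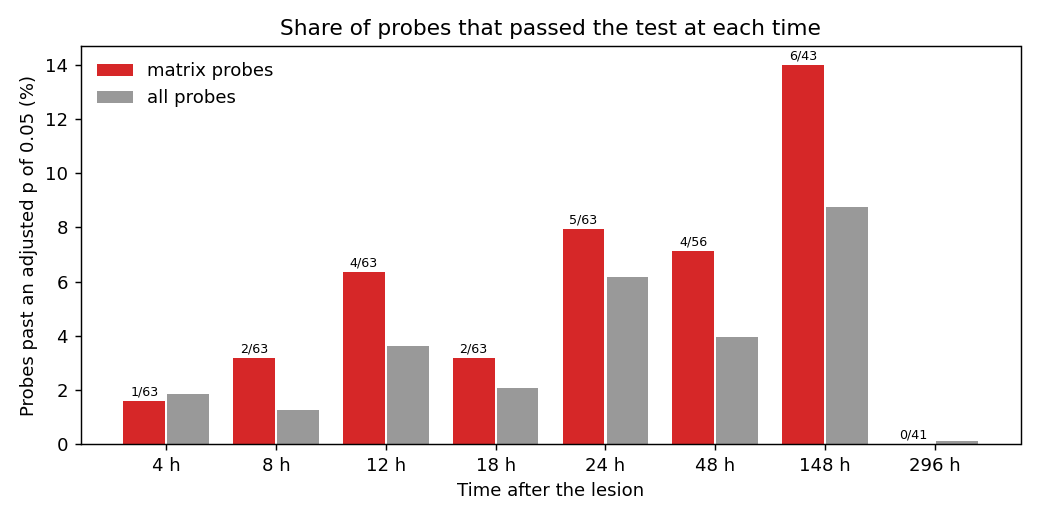
Percentage of probes that passed (adjusted p under 0.05) by hours after the lesion, with matrix probes in red on the left of each pair, labelled with the number past the threshold of the number tested, and all probes in grey on the right. The matrix share is 14% against 8.75% at 148 h and 0% against 0.106% at 296 h.

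Genes that act with this matrix were followed for comparison, from a list of 106 genes of which 71 were on the array. In late minus early 2 of 46 probes passed, both higher, where 3.65% of all probes did: Cd44, the hyaluronan receptor, by 1.27 ± 0.31 (SE, limma adjusted p = 0.0252), and the heparan sulphate proteoglycan Gpc1 by 0.98 ± 0.26 (SE, limma adjusted p = 0.0378). In the first-day mean 12 of 78 probes were higher and 15 lower, where 11.4% of all probes were higher and 12.6% lower, and the counts of smaller groups below stand beside the same shares. Among 16 probes for integrins and other receptors, 2 were higher and 4 lower. Itgb4 had 1.03 ± 0.08 (limma adjusted p = 7.22e-08) and Ddr2 0.41 ± 0.08 (limma adjusted p = 0.00179). Itga5, a subunit of the fibronectin receptor, had -0.81 ± 0.13 (limma adjusted p = 1.78e-04) and Itga1 -0.28 ± 0.07 (limma adjusted p = 0.00632). Sdc1 had -0.38 ± 0.10 (limma adjusted p = 0.0152) and Sdc3 -0.33 ± 0.09 (limma adjusted p = 0.0142). Of 11 probes for the plasminogen system, whose proteases act upstream of MMPs, and for serpins, 5 were higher. These were Plat, Plg, Plaur (0.37 ± 0.10, limma adjusted p = 0.0135), Serpini1, an inhibitor made by neurons, and Serpinh1, a collagen chaperone. Lower were Plau (-0.70 ± 0.09, limma adjusted p = 2.43e-05) and Serpine2 (-0.31 ± 0.08, limma adjusted p = 0.0137).

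Of the growth factors that regulate matrix genes, 0 of 12 probes were higher and 4 lower on the first day, Tgfb3 by -1.02 ± 0.08 (limma adjusted p = 1.52e-07), Tgfb2 on both probes by -0.52 ± 0.12 (limma adjusted p = 0.00316) and -0.42 ± 0.10 (limma adjusted p = 0.00652), and Tgfbr3 by -0.50 ± 0.14 (limma adjusted p = 0.0141). The probes of Tgfb3, Itga5 and Itga1 and 1 of the probes of Tgfb2 are on plate 52. Perlecan (Hspg2) was lower on both of its probes, by -0.64 ± 0.08 (limma adjusted p = 1.81e-05) and -0.29 ± 0.06 (limma adjusted p = 0.00318).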

How the data were processed

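The authors hybridised labelled RNA to spotted oligonucleotide arrays, lesioned ganglia in Cy5 and intact ganglia in Cy3. The deposited values are linear ratios of the channels of each array, with a median of 1.00 to 1.06 per array, so they had been normalised within arrays. The software, background correction and normalisation are not given in the sources used here. Probe symbols came from the platform annotation: 4423 probes had 1 symbol, 2 had several and 663 none. Arrays that lacked under 200 probes were called full and the others sparse.

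Ratios were turned into log2 and fitted probe by probe with limma 3.58.1 in R 4.3.3, with array weights, 1 mean per time and moderated variances, over all probes with at least 2 arrays at each time used. Contrasts were each time against 0, the mean of 4 to 24 h, late minus early and an F-test between times, with Benjamini-Hochberg adjustment over all probes tested and a threshold of 0.05. The procedure was tested on simulated data with independent errors and no dye or plate effects, so it was not tested against such effects. Named genes were the markers Timp1, Dcn, Lum and Col1a1, every matrix probe past the threshold, other probes of such genes, and the highest and lowest late minus early value of each family. Members, gene lists and tests were chosen with earlier results of these data known. The alternatives were equal weights, centring, scaling, full arrays only, other minimum numbers of arrays, robust moderation, a replicate block, arrays of 1 time only, probe averaging, array class as a factor, omission of plates 36, 52 and 53, and omission of replicates.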

Additional observations from a re-analysis of the deposited data

Results flagged for a closer look

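Timp1 differed between times after the same lesion, and the difference was itself tested. Its average log2 ratio over 48, 148 and 296 h was 1.75 higher than over 4, 8 and 12 h (limma adjusted p = 1.45e-04). Of the 8 late arrays, 7 lay above all 15 first-day arrays, the exception being replicate 1 of 296 h. The arrays of 296 h had 0.07 and 0.59, against 1.26 to 2.83 at 48 and 148 h, so the average does not describe 296 h. The F-test across the 8 times gave 14.6 (limma adjusted p = 0.00136).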

How the results depend on the processing

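Timp1 kept its late minus early call in every alternative and leave-out fit that was run, including array class as a factor and, chosen after seeing the data, without 148 h. Over the 26 fits without 1 array or 1 replicate number, single times summed to 6 to 27 calls of matrix probes (24 with all arrays), the first-day mean gave 5 to 19 (18), late minus early 1 to 5 (1) and the F-test 0 to 4 (1). Timp1 lost the F-test without replicate 2 (12.5, limma adjusted p = 0.264) or replicate 3 (7.99, limma adjusted p = 0.336), 48 h without replicate 1 (1.60, limma adjusted p = 0.112) and 148 h without replicate 3 (2.15, limma adjusted p = 0.0555). The fit without replicate 1 of 296 h gave the highest counts of late minus early and of the F-test, and it left that time with 1 sparse array. With equal weights the first-day mean gave 9 calls, late minus early 6 and the F-test 2. At 48, 148 and 296 h equal weights called 12 of 56, 13 of 43 and 4 of 41 matrix probes. Of all probes, 15.6%, 28.7% and 8.65% passed there. At 4, 8, 12, 18 and 24 h they called 1, 1, 1, 1 and 2 of 63, where 0.538%, 0.42%, 0.139%, 0.379% and 1.42% of all probes passed. Late minus early gave 2 calls with full arrays only, with the replicate block, and with probes of a gene averaged. With only the arrays of the time tested, single times gave 0 calls, where fewer samples enter each fit. No direction reversed. Of 44 calls of named probes, 27 were kept with equal weights, 43 with median centring, 42 with scaling and 38 with the block. Without all arrays of 1 replicate number fewer were kept, 11 of 40 tested without replicate 3. The first-day calls of Adam1a, Mmp2, Timp2, Lama5, Fbln5 and Col2a1 (32C10) were each lost without at least 1 of the replicate numbers. Every fit without 1 array had kept them. Residuals of same-numbered arrays correlated with a median of -0.00637 over 77 pairs, against 0.00398 for other numbers. These medians show no general pairing by replicate number, but cannot exclude one in some arrays or probes. The causes were not tested. Single times could not be summed for full arrays only, since 148 h has none.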
